A study of Homo sapiens with 6 samples.

Results

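The genes described here are 10 regulators of the passage through G1, the phase of the cell cycle before DNA synthesis: the cyclins CCND1, CCND3 and CCNE1, the cyclin-dependent kinases CDK4, CDK6 and CDK2, the kinase inhibitors CDKN1A and CDKN1B, the ubiquitin ligase subunit SKP2 and the transcription factor E2F1. They were taken from a list of names, matched to Ensembl identifiers through GENCODE release 29, and all 10 were found among the 30099 genes of each expression table. RNA sequencing compared MDA-MB-231, a long-established line of human breast cancer cells that the labels mark as the control, with cells of the same background labelled Pep2-E3, whose genotype the labels give as Pep-E3 without explaining it. Each group had 3 libraries. The labels do not say whether the Pep2-E3 cells are a clone or a pool, nor whether replicates came from separate cultures. The p-values therefore reflect library-to-library spread, which may be technical.

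D-type cyclins bind CDK4 and CDK6 and begin the phosphorylation of the retinoblastoma protein in answer to mitogens, and cyclin E with CDK2 continues it. Phosphorylated retinoblastoma protein releases E2F factors, which switch on cyclin E, E2F1 itself and the genes of DNA replication. CDKN1A (p21), a classical target of p53, and CDKN1B (p27) bind and restrain these kinases, and SKP2 is the subunit that brings phosphorylated p27 to its ubiquitin ligase. MDA-MB-231 cells are known to carry mutant p53 and a deletion of the inhibitor gene CDKN2A.

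Each library held between 17154511 and 18206694 fragments, and levels are FPKM, fragments per kilobase of exon scaled to the library's total. The 10 genes were covered by 243 to 8846 fragments in a library, and all of them passed the filter of a mean of at least 0.5 FPKM. The mesenchymal genes VIM, CD44, AXL, CAV1, MMP14 and FOSL1, which mark MDA-MB-231, were at high levels, and the list of 7 to which they belong summed to 1043 to 1070 FPKM in MDA-MB-231 and 949 to 985 in Pep2-E3. CD109, the other gene of that list, stayed under 0.5 FPKM on average. Of the 9 luminal or epithelial markers, 4 were under that filter, among them ESR1 and CDH1, and the list summed to 130 to 139 FPKM in MDA-MB-231 and 134 to 149 in Pep2-E3, mostly from KRT19 and KRT18. Single markers passed in both lists. The luminal keratin KRT18 rose from 27.7 to 39.7 FPKM (adjusted p = 0.00374 in limma) and the luminal transcription factor GATA3 from 0.846 to 2.10 FPKM (adjusted p = 0.00416), while the receptor gene ERBB3 fell from 1.43 to 0.626 FPKM (adjusted p = 0.00493). AXL fell from 260.4 to 205.9 FPKM (adjusted p = 0.0170) and MMP14 rose from 96.2 to 109.8 FPKM (adjusted p = 0.0353). The part of these markers in the results below was not tested. The summed levels of the leukocyte and endothelial lists were at most 0.162 and 0.0831 FPKM. Pep2-E3 replicate 1 stood apart in base composition: over the 14235 tested genes its deviation from the other Pep2-E3 libraries correlated with GC content (Spearman's rho 0.59), and that of Pep2-E3 replicate 3 did so in the opposite sense (rho -0.53). In the MDA-MB-231 libraries this rho lay between -0.14 and 0.17. The deviations of the 3 libraries in a group are measured against each other and are not independent.

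Promoter sequence, from 250 bases before to 50 bases after an annotated start, was available from RefSeq (GRCh38.p14) for 8 of the 10 genes, with 11 promoters in all. The E2F motif was searched as TTTCGCGC, TTTGGCGC, TTTCCCGC and TTTGCCGC on both strands. It occurred in 1 of these 11 promoters, that of E2F1, and in 3.30% of the 34943 promoters of this length. Only exact matches to these words were counted, so a promoter without a match may still hold a site that differs from them. Shown are the promoters of the gene with the largest rise, of the inhibitor with a fall and of E2F1, in which the motif occurred. Capitals mark matches to the E2F motif, which on the printed strand of E2F1 are 1 reverse and 1 forward match.
CCNE1 (chr19:29811741-29812040, plus strand): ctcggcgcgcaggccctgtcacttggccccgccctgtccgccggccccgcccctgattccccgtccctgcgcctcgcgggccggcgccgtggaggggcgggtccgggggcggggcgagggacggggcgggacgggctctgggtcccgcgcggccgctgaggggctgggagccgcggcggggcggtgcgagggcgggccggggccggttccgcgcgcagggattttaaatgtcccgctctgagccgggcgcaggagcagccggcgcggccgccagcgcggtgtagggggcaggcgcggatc
CDKN1B (chr12:12717118-12717417, plus strand): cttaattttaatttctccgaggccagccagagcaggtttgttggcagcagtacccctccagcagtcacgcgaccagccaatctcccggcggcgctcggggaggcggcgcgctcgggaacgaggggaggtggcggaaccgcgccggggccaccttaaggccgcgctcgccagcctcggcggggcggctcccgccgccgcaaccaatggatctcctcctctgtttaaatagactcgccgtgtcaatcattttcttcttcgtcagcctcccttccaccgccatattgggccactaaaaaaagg
E2F1 (chr20:33686336-33686635, minus strand): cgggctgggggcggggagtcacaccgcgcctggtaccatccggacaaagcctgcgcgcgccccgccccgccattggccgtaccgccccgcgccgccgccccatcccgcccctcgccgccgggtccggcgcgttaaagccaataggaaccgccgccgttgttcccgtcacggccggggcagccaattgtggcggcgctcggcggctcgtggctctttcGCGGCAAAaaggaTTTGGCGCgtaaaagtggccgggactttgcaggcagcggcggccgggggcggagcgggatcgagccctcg
All 3 are rich in G and C, with 81% GC for CCNE1, 62.3% for CDKN1B and 73.3% for E2F1. The GC box GGGCGG, read on both strands, occurred in 9 of these 11 promoters and in 44.9% of all promoters, with 7 matches in CCNE1, 6 in E2F1 and 1 in CDKN1B. The CCAAT box, searched as CCAAT on both strands, had 3 matches each in CDKN1B and E2F1 and none in CCNE1, and occurred in 34.6% of all promoters.

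Between Pep2-E3 and MDA-MB-231, CCNE1, CDK4, CDKN1A and E2F1 rose and CDK2 and CDKN1B fell, while CCND1, CCND3, CDK6 and SKP2 did not pass. Thus 6 of 10 genes passed, 4 higher and 2 lower (adjusted p under 0.05, limma-trend with Benjamini-Hochberg adjustment). Among all 14235 tested genes, 30.8% passed, 14.6% higher and 16.2% lower. The 10 genes were chosen with earlier results of these data known, so these shares are descriptive and not independent support. In 8 of the 10 genes the 3 Pep2-E3 values lay apart from the 3 MDA-MB-231 values, as they did in 48.8% of all tested genes. The median log2 fold change of the 10 genes was 0.10, against -0.02 over all tested genes. No change reached 2-fold: the largest ratio of mean FPKM was the 1.69-fold rise of CCNE1. These are levels in whole cultures, in which more cells in one phase of the cycle and more RNA per cell cannot be told apart.

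**Figure D1:**
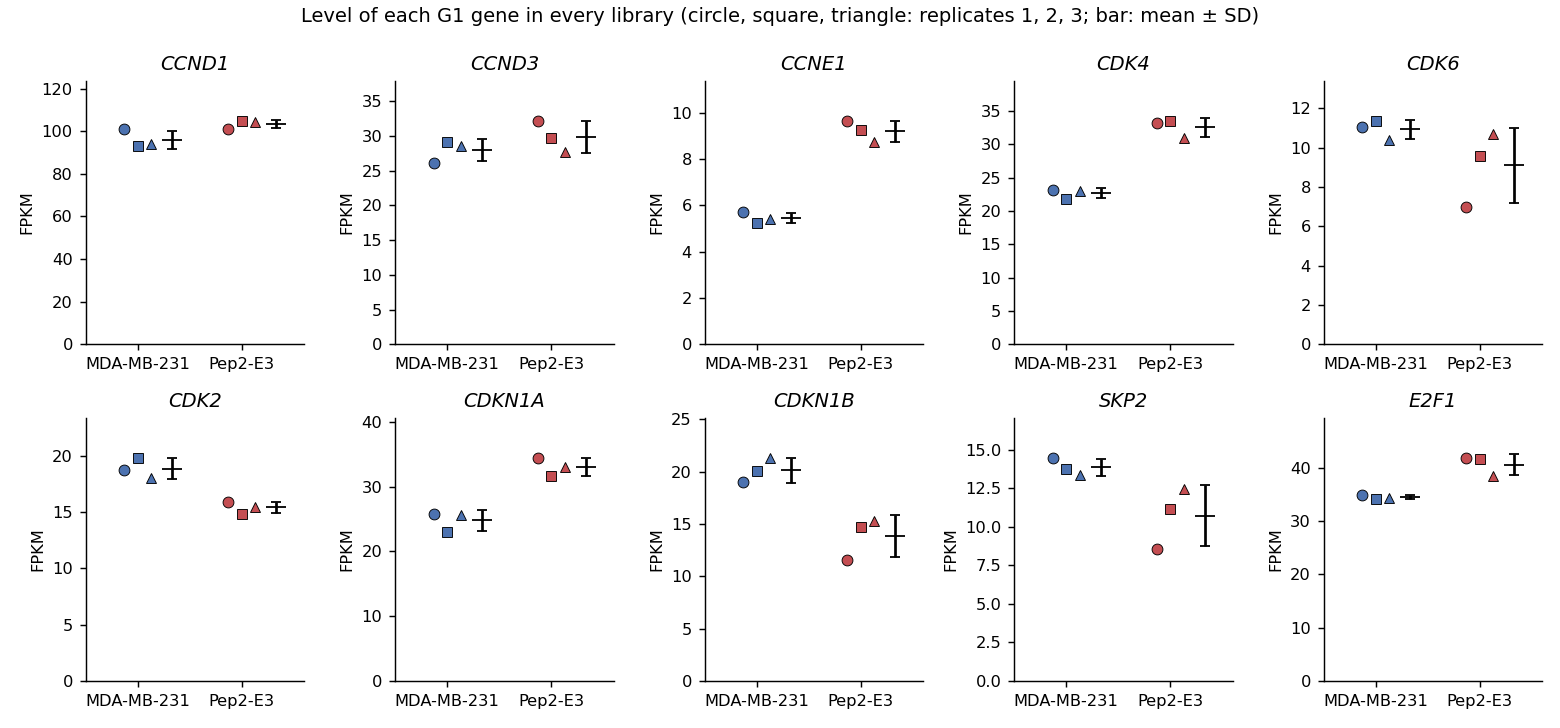
FPKM of the 10 genes in each of the 6 libraries, with 1 panel per gene and the vertical axes starting at 0; circles, squares and triangles are replicates 1, 2 and 3, and bars give the mean ± SD of 3 libraries. The groups lie apart in CCNE1, CDK4, CDKN1A and E2F1, which are higher in Pep2-E3, and in CDKN1B and CDK2, which are lower. They also lie apart in CCND1, narrowly higher, and in SKP2, lower, although neither passed. In CDK6, CDKN1B and SKP2 replicate 1 is the lowest Pep2-E3 library.

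Among the cyclins, CCND1 was the most abundant of the 10 genes and CCNE1 the least abundant in MDA-MB-231. CCNE1, cyclin E1, was at 5.70, 5.23 and 5.43 FPKM in MDA-MB-231 replicates 1, 2 and 3 and at 9.64, 9.25 and 8.73 FPKM in Pep2-E3 replicates 1, 2 and 3. Every Pep2-E3 library was far above every MDA-MB-231 library, by more than the range within either group. The mean went from 5.46 ± 0.234 to 9.21 ± 0.457 FPKM (SD, n = 3 per group), a log2 fold change of 0.66 ± 0.06 (SE, adjusted p = 0.000868 in limma), and its p ranked 219 among the tested genes.

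CCND1, cyclin D1, was at 101, 93.1 and 94.2 FPKM in MDA-MB-231 and at 101, 105 and 104 FPKM in Pep2-E3. All Pep2-E3 values were the higher ones, but MDA-MB-231 replicate 1 and Pep2-E3 replicate 1 were almost level. The log2 difference of 0.11 had a 95% interval from -0.006 to 0.22 and did not pass (adjusted p = 0.133 in limma). Of the exon bases of CCND1, 10.3% are shared with LTO1 on the opposite strand, which the library kit does not separate, and LTO1 was at 7.91 ± 0.0953 and 8.25 ± 0.392 FPKM.

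CCND3, cyclin D3, was at 26.1, 29.2 and 28.5 FPKM in MDA-MB-231 and at 32.1, 29.8 and 27.6 FPKM in Pep2-E3. The groups overlapped, and Pep2-E3 replicate 3 was below MDA-MB-231 replicates 2 and 3. The log2 difference was 0.09, with a 95% interval from -0.08 to 0.26 (adjusted p = 0.366 in limma). The ratio of CCND1 to CCND3 was 3.45 ± 0.356 in MDA-MB-231 and 3.48 ± 0.315 in Pep2-E3, with overlapping groups.

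Of the kinases, CDK4 rose, CDK2 fell and CDK6 did not pass. CDK4 was at 23.2, 21.8 and 23.0 FPKM in MDA-MB-231 and at 33.2, 33.4 and 30.9 FPKM in Pep2-E3. The groups were well separated, and the mean went from 22.7 ± 0.776 to 32.5 ± 1.42 FPKM, a 1.43-fold rise with a log2 fold change of 0.50 ± 0.05 (SE, adjusted p = 0.00141 in limma). TSPAN31, a tetraspanin gene on the opposite strand, shares 43.2% of the exon bases of CDK4, so reads there cannot be assigned by strand. TSPAN31 itself was listed at 2.11 ± 0.126 FPKM in MDA-MB-231 and 1.88 ± 0.106 in Pep2-E3 and did not pass (adjusted p = 0.279).

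CDK6, the other partner of the D-type cyclins, was at 11.04, 11.3 and 10.4 FPKM in MDA-MB-231 and at 7.001, 9.58 and 10.7 FPKM in Pep2-E3. Pep2-E3 replicate 1 was far below the other libraries and Pep2-E3 replicate 3 was within the MDA-MB-231 range. The log2 difference of -0.26 had a 95% interval from -0.58 to 0.07 (adjusted p = 0.194 in limma). Without Pep2-E3 replicate 1 it was -0.10 (adjusted p = 0.275).

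CDK2, the partner of cyclin E, was at 18.7, 19.8 and 18.0 FPKM in MDA-MB-231 and at 15.9, 14.8 and 15.5 FPKM in Pep2-E3. The groups did not overlap, and the mean fell from 18.8 ± 0.895 to 15.4 ± 0.530 FPKM, with a log2 fold change of -0.28 ± 0.06 (SE, adjusted p = 0.0115 in limma). Without MDA-MB-231 replicate 2, its highest library, the log2 fold change was -0.24 (adjusted p = 0.0504). Of the exon bases of CDK2, 14.5% are shared with the antisense gene AC025162.1, which was not among the genes listed. Another 2.29% are shared with PMEL on the opposite strand, which was at 0.475 ± 0.0207 and 0.333 ± 0.150 FPKM.

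The ratio of CDK4 to CDK6 within a library was 2.10, 1.92 and 2.22 in MDA-MB-231 and 4.74, 3.49 and 2.89 in Pep2-E3. It was higher in every Pep2-E3 library than in any MDA-MB-231 library, and it varied far more among the Pep2-E3 libraries.

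The inhibitors CDKN1A and CDKN1B moved in opposite directions. CDKN1A was at 25.8, 22.9 and 25.6 FPKM in MDA-MB-231 and at 34.4, 31.6 and 33.0 FPKM in Pep2-E3. Every Pep2-E3 library was higher, and the mean rose from 24.8 ± 1.62 to 33.0 ± 1.42 FPKM, a log2 fold change of 0.40 ± 0.06 (SE, adjusted p = 0.00500 in limma).

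CDKN1B was at 19.0, 20.05 and 21.3 FPKM in MDA-MB-231 and at 11.6, 14.8 and 15.3 FPKM in Pep2-E3. The groups did not overlap, and Pep2-E3 replicate 1 was the lowest library. The mean fell from 20.1 ± 1.17 to 13.9 ± 2.00 FPKM, a 1.45-fold difference with a log2 fold change of -0.51 ± 0.11 (SE, adjusted p = 0.0123 in limma). Without Pep2-E3 replicate 1 the log2 fold change was -0.40 ± 0.06 (SE, adjusted p = 0.00393). The call was nearest the threshold without MDA-MB-231 replicate 2 or 3, with adjusted p of 0.0466 and 0.0479 in limma.

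In MDA-MB-231 the ratio of CDKN1A to CDKN1B was 1.36, 1.14 and 1.201, and in Pep2-E3 it was 2.98, 2.14 and 2.16. The ratio of CCNE1 to CDKN1B was 0.3003, 0.261 and 0.255 in MDA-MB-231 and 0.834, 0.627 and 0.572 in Pep2-E3. The groups did not overlap in either ratio, and the highest value of both was in Pep2-E3 replicate 1. No test was made of the ratios, which repeat the values of their parts. Nor were they corrected for GC content, with which the deviation of Pep2-E3 replicate 1 correlated (rho 0.59). CDK6 and CDKN1B have a lower GC content than the genes divided by them, and both were lowest in that library.

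**Figure D2:**
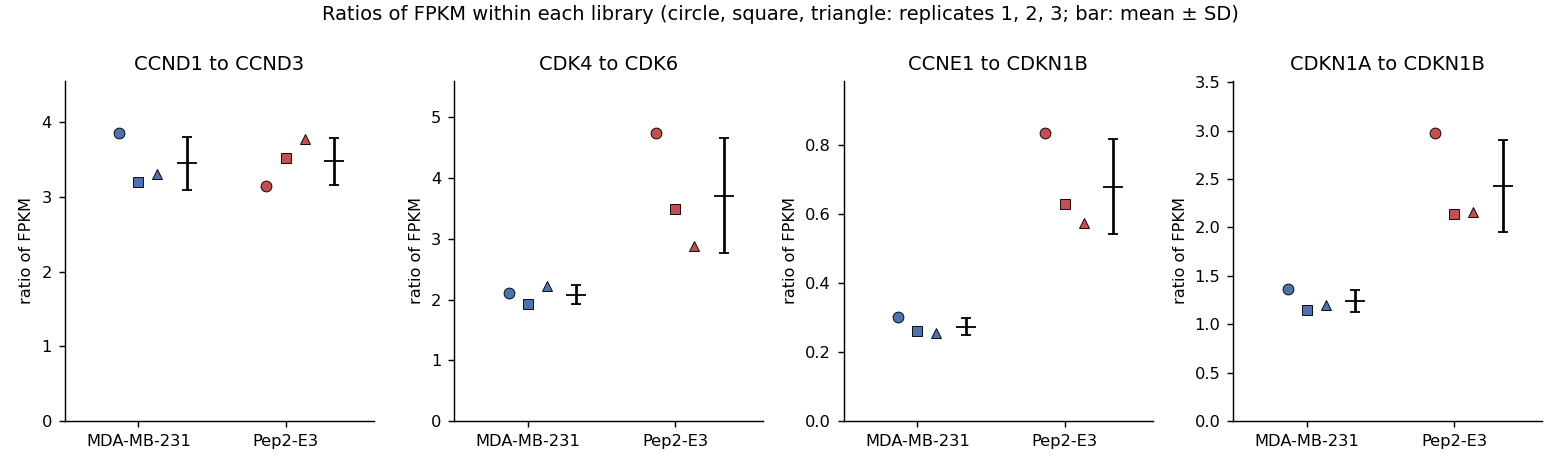
Ratios of FPKM within each library for 4 pairs of genes, with vertical axes from 0; circles, squares and triangles are replicates 1, 2 and 3, and bars give the mean ± SD of 3 libraries. The CCND1 to CCND3 ratio overlaps between the groups, and the other 3 ratios are higher in every Pep2-E3 library. The ratios are not corrected for GC content.

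SKP2, which marks p27 for degradation, was at 14.5, 13.7 and 13.4 FPKM in MDA-MB-231 and at 8.53, 11.2 and 12.4 FPKM in Pep2-E3. All Pep2-E3 libraries were lower, replicate 1 most of all. The log2 difference was -0.36 with a 95% interval from -0.65 to -0.07 for this gene alone, and it did not pass over all tested genes (adjusted p = 0.0668 in limma). Without Pep2-E3 replicate 1 the difference was smaller, -0.22 ± 0.06 (SE), and passed (adjusted p = 0.0373). With limma-voom, run on recovered fragments, it was -0.39 ± 0.12 (adjusted p = 0.0345). SKP2 passed under 6 of 16 alternative settings. It did not pass without MDA-MB-231 replicates 1, 2 and 3 in turn (adjusted p = 0.174, 0.153 and 0.126 in limma).

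E2F1 was at 34.8, 34.2 and 34.3 FPKM in MDA-MB-231 and at 41.8, 41.6 and 38.4 FPKM in Pep2-E3. The MDA-MB-231 libraries were nearly equal and all Pep2-E3 libraries were above them. The log2 fold change was 0.23 ± 0.05 (SE, adjusted p = 0.0147 in limma). The size of the difference changed little when a library was left out, but the call did not always hold. Without MDA-MB-231 replicates 1, 2 and 3 in turn the log2 fold change was 0.24, 0.22 and 0.23, with adjusted p of 0.0535, 0.0612 and 0.0548. It was 0.21 without Pep2-E3 replicate 2 (adjusted p = 0.0554), 0.21 without Pep2-E3 replicate 1 (adjusted p = 0.0173) and 0.27 without Pep2-E3 replicate 3 (adjusted p = 0.0101).

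**Figure D3:**
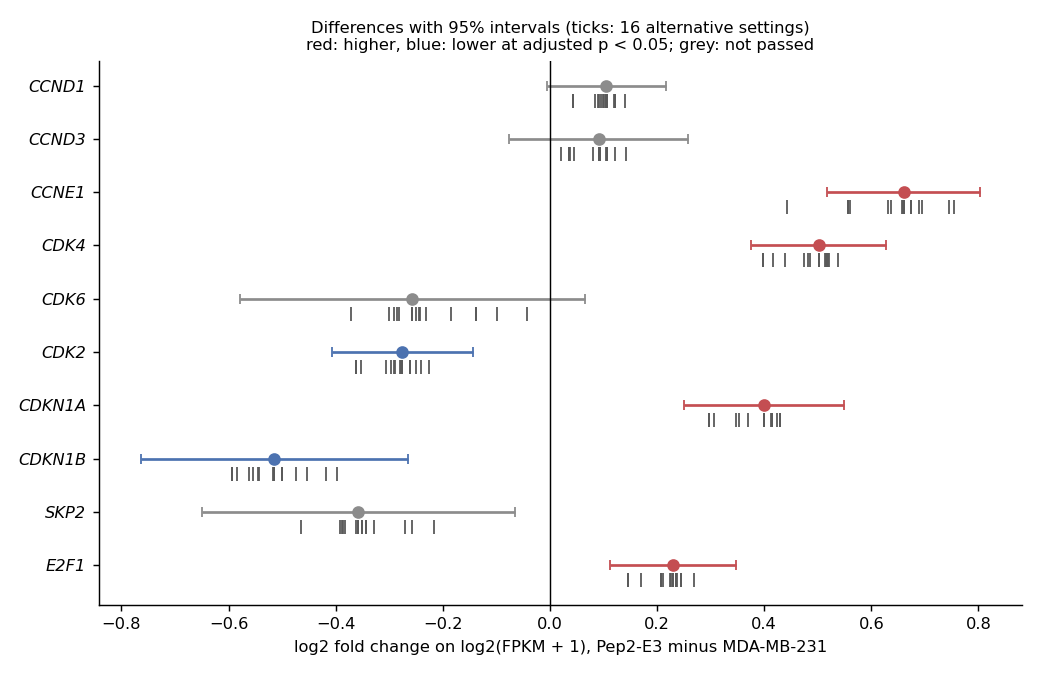
Difference of each gene in log2(FPKM + 1), Pep2-E3 minus MDA-MB-231, with its 95% interval from limma; red and blue points passed at an adjusted p under 0.05, grey points did not, and the ticks below each point are the 16 alternative settings. No tick lies on the other side of 0 from its point, from 0.44 to 0.75 in CCNE1 and from -0.37 to -0.04 in CDK6.

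CDK6, SKP2 and CDKN1B have the lowest GC content of the 10 genes, 39.5%, 41.3% and 47.7% in the longest transcript, and they are the only 3 of the 10 under 50%. They also had the largest deviations of Pep2-E3 replicate 1 from the other Pep2-E3 libraries among these genes, -0.48, -0.42 and -0.35 on the log2(FPKM + 1) scale. In the other 7 genes this deviation lay between -0.05 and 0.16. With each library corrected for GC content and exon length, the log2 fold change was -0.14 for CDK6 (adjusted p = 0.243), -0.35 for SKP2 (adjusted p = 0.0190) and -0.59 for CDKN1B (adjusted p = 0.00783 in limma). The correction lowered the log2 fold change of E2F1, the gene with the highest GC content (62.5%), to 0.15 (adjusted p = 0.0283). It also lowered the other genes that rose, to 0.56 in CCNE1, 0.40 in CDK4 and 0.30 in CDKN1A, and all of them still passed. CDK2 went to -0.36. The median of the 10 genes was 0.04 after the correction. The correction was fitted to deviations from the mean of all 6 libraries. It can therefore also remove differences between the groups that follow GC content or exon length.

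**Figure D4:**
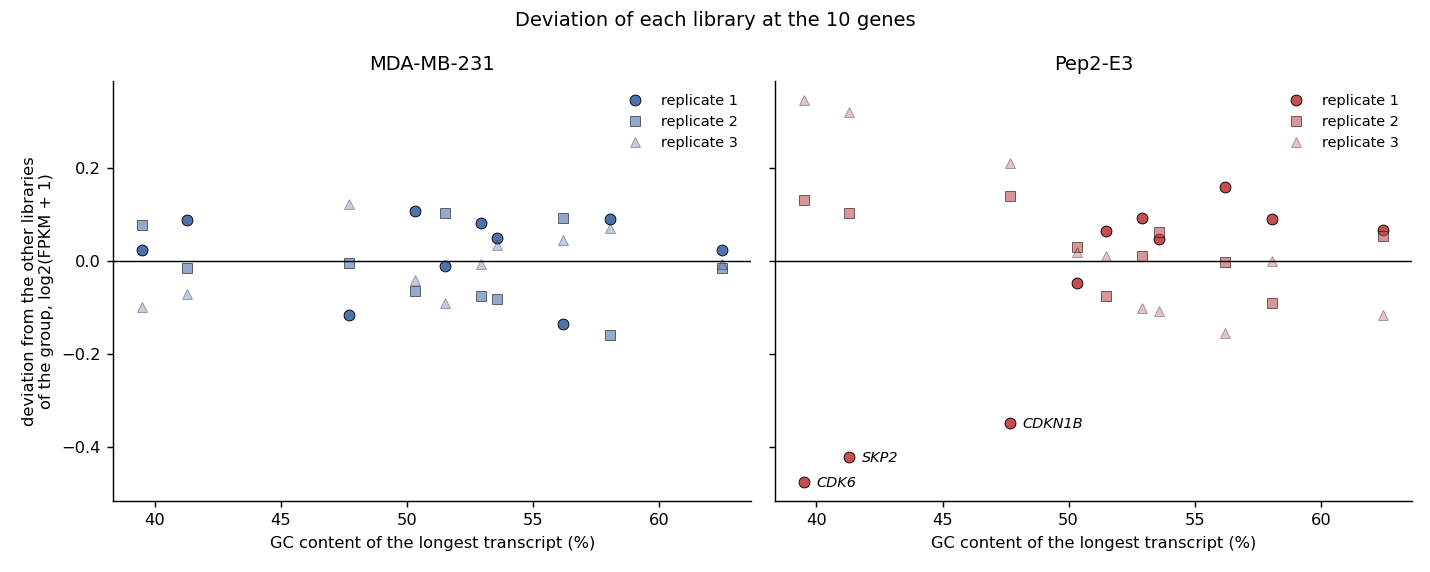
Deviation of each library from the other libraries of its group on the log2(FPKM + 1) scale against the GC content of the longest transcript, for the 10 genes in MDA-MB-231 (left) and Pep2-E3 (right). In Pep2-E3 replicate 1 the genes CDK6, SKP2 and CDKN1B lie at -0.48, -0.42 and -0.35, and no MDA-MB-231 library deviates as far at any of the 10 genes.

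In order of mean FPKM, MDA-MB-231 had CCND1, E2F1, CCND3, CDKN1A, CDK4, CDKN1B, CDK2, SKP2, CDK6 and CCNE1. In that order the ranges of neighbours overlapped between CDKN1A and CDK4 and between CDKN1B and CDK2. In Pep2-E3, CDKN1A and CDK4 stood above CCND3, CDK2 above CDKN1B, and CCNE1 was level with CDK6 at 9.21 and 9.09 FPKM. There the ranges of CDKN1A, CDK4 and CCND3 overlapped from neighbour to neighbour, as did those of CDK2, CDKN1B, SKP2, CCNE1 and CDK6. FPKM is per length of all annotated exons, so these levels share a unit. The order was not corrected for GC content, nor for exon bases shared with opposite-strand genes, which are 43.2% in CDK4.

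On GRCh38 the genes lie on 7 chromosomes: CCNE1 on chromosome 19 (29811898 to 29824308), CCND1 on 11 (69641087 to 69654474), CCND3 on 6 (41934933 to 42050357), CDKN1A on 6 (36676460 to 36687339), CDKN1B on 12 (12715058 to 12722371), CDK2 on 12 (55966769 to 55972784), CDK4 on 12 (57747727 to 57756013), CDK6 on 7 (92604921 to 92836594), E2F1 on 20 (33675683 to 33686404) and SKP2 on 5 (36151989 to 36184319). Around each gene, the 40 nearest tested genes, 20 on each side, had a median log2 fold change between -0.09 and 0.08. Around CCNE1 it was -0.07, with 6 neighbours higher and 6 lower, and around CDKN1B -0.06, with 4 higher and 9 lower. Around CDKN1A it was 0.08, with 7 higher and 3 lower, and around CDK4 -0.05, with 6 higher and 4 lower. The window with the most higher neighbours was that of CCND3, with 11 higher, 6 lower and a median of 0.04. Among all tested genes, 14.6% were higher and 16.2% lower. The windows were wide, from 2.82 megabases around CDK2 to 13.0 megabases around CCNE1. Words of 50 bases shared with other genes made up at most 1.86% of the longest transcript, in SKP2, and were absent from CCNE1, CCND1, CDK2, CDK6, CDKN1A, CDKN1B and E2F1.

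By root mean square difference over the 6 libraries, the profiles most like that of CCNE1, each centred on its MDA-MB-231 mean on the log2(FPKM + 1) scale, were those of RNF224, UTP14A and M6PR, at 0.037 each. M6PR, the cation-dependent mannose 6-phosphate receptor, went from 18.5 ± 0.110 to 29.5 ± 1.88 FPKM. In all, 147 genes lay within 0.1 of CCNE1. For CDK2, which had the smallest p among the genes that fell, the nearest were ENSG00000247679, MAN2B2 and EFNA1, at 0.022, 0.023 and 0.026, and 1215 genes lay within 0.1.

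A wider list of 45 other regulators of the same step had calls in both directions. This list and those of E2F and p53 targets below were also chosen with earlier results of these data known. Of these, 44 were listed and 40 tested, and 9 (22.5%) were higher and 7 (17.5%) lower, beside 14.6% and 16.2% of all tested genes, with a median log2 fold change of 0.04. Without MDA-MB-231 replicate 1, 2 or 3 the list had 9, 9 and 10 changed genes, which is 22.5%, 22.5% and 25% of its tested genes, beside 19.0%, 17.4% and 20.3% of all tested genes. With GC content and exon length corrected, 7 were higher and 9 lower, 40% of the list beside 37.7% of all tested genes. Among E2F factors, the atypical repressor E2F8 rose from 9.63 ± 0.943 to 14.6 ± 0.422 FPKM (log2 fold change 0.55 ± 0.07, SE), and its relative E2F7 fell from 26.1 ± 0.649 to 14.9 ± 0.989 FPKM (-0.77 ± 0.06; adjusted p = 0.00301 and 0.000542 in limma). E2F4, which acts mainly with pocket proteins in quiescent cells, rose from 39.8 ± 0.827 to 51.2 ± 3.54 FPKM, and the activator E2F3 from 17.8 ± 0.492 to 22.4 ± 1.69 FPKM. The pocket protein gene RBL2, which encodes p130, fell from 9.47 ± 0.728 to 5.72 ± 0.448 FPKM (-0.64 ± 0.08; adjusted p = 0.00204).

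The retinoblastoma gene RB1 itself, named after its values were seen, was at 13.3 ± 0.780 FPKM in MDA-MB-231 and 13.6 ± 3.58 in Pep2-E3 (adjusted p = 0.992), where replicate 1 was at 9.52 and the others at 15.9 and 15.5. FBXW7, the ubiquitin ligase subunit that recognises cyclin E, fell from 3.04 ± 0.402 to 1.76 ± 0.1298 FPKM (-0.55 ± 0.09; adjusted p = 0.00666). The kinase WEE1, which inhibits CDK1 and CDK2, fell from 8.11 ± 0.344 to 5.92 ± 0.421 FPKM. FBXO5, an inhibitor of the anaphase-promoting complex, rose from 12.1 ± 0.154 to 14.9 ± 0.779 FPKM.

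Other kinase inhibitors were, in part, named after their values were seen. CDKN1C (p57), related to CDKN1A and CDKN1B, fell from 2.19 ± 0.169 to 1.21 ± 0.227 FPKM (-0.53 ± 0.10; adjusted p = 0.00857 in limma). Of the inhibitors specific to CDK4 and CDK6, CDKN2C rose from 10.01 ± 0.340 to 11.6 ± 0.387 FPKM (adjusted p = 0.0328) and CDKN2D fell from 25.2 ± 1.86 to 19.7 ± 1.44 FPKM (adjusted p = 0.0164). CDKN2A had no fragment in 5 libraries and 1 fragment in Pep2-E3 replicate 3, where 3 fragments would be 0.0404 FPKM. CDKN2B was not among the genes listed. CCND2, cyclin D2, was at 0.285, 0.284 and 0.271 FPKM in MDA-MB-231 and at 0.0814, 0.0323 and 0.0326 FPKM in Pep2-E3, with between 4 and 37 fragments, and was too low to be tested. LIN37 and CDK3 were also under the filter, with at most 18 and 7 fragments in a library. Cyclin E2, CCNE2, which was named because it is the other E-type cyclin, was at 4.01 ± 0.546 and 4.70 ± 1.01 FPKM (adjusted p = 0.391).

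E2F target genes of the G1/S border moved upward where they passed. Of 30 genes, all tested, 16 were higher and 0 lower, beside 14.6% and 16.2% of all tested genes. The median log2 fold change was 0.23. Because the list was chosen with earlier results known, these shares are descriptive only. The 14 others did not pass, among them PCNA and CCNA2. At an unadjusted p under 0.05, 2 genes were lower, and limma-voom also called 2 lower. Without MDA-MB-231 replicate 1, 9 of the 30 passed (30%, beside 19.0% of all tested genes), and without Pep2-E3 replicate 2, 10 passed (33.3%, beside 20.9%). Without MDA-MB-231 replicate 2, 6 passed, and this share of 20% was near the 17.4% of all tested genes. Upward calls were UHRF1, from 29.4 ± 1.40 to 42.7 ± 1.79 FPKM, GINS2, from 8.86 ± 0.515 to 14.3 ± 0.898, MCM6, from 28.97 ± 0.214 to 40.6 ± 3.40, and the licensing factor CDT1, from 16.4 ± 0.855 to 20.5 ± 0.359 FPKM. With GC content and exon length corrected, 15 of the 30 were higher and 3 lower, 60% beside 37.7% of all tested genes. The list shares CCNA2, CDC25A and E2F2 with the list of other regulators.

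Genes known as targets of p53, to which CDKN1A belongs, had about the same share of calls as all tested genes. Of 22 genes, 21 were tested, and 3 were higher and 3 lower, 28.6% in all beside 30.8% of all tested genes, with a median log2 fold change of -0.11. Higher were the apoptosis gene BAX (31.1 ± 0.516 to 38.1 ± 2.59 FPKM), AEN (8.64 ± 0.374 to 10.5 ± 0.816) and TP53I3 (0.798 ± 0.317 to 1.53 ± 0.120). Lower were the death receptor gene TNFRSF10B (45.7 ± 0.660 to 36.5 ± 1.53 FPKM), TP53INP1 (2.93 ± 0.274 to 1.45 ± 0.302) and the repair gene DDB2 (3.38 ± 0.185 to 2.50 ± 0.00275). MDM2, named after its values were seen as the best known target, was at 3.53 ± 0.214 and 3.20 ± 0.457 FPKM (adjusted p = 0.394 in limma). Without MDA-MB-231 replicate 1 the list had 3 changed genes, all lower, 14.3% beside 19.0% of all tested genes. With GC content and exon length corrected, 2 were higher and 5 lower, 33.3% beside 37.7% of all tested genes.

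**Figure D5:**
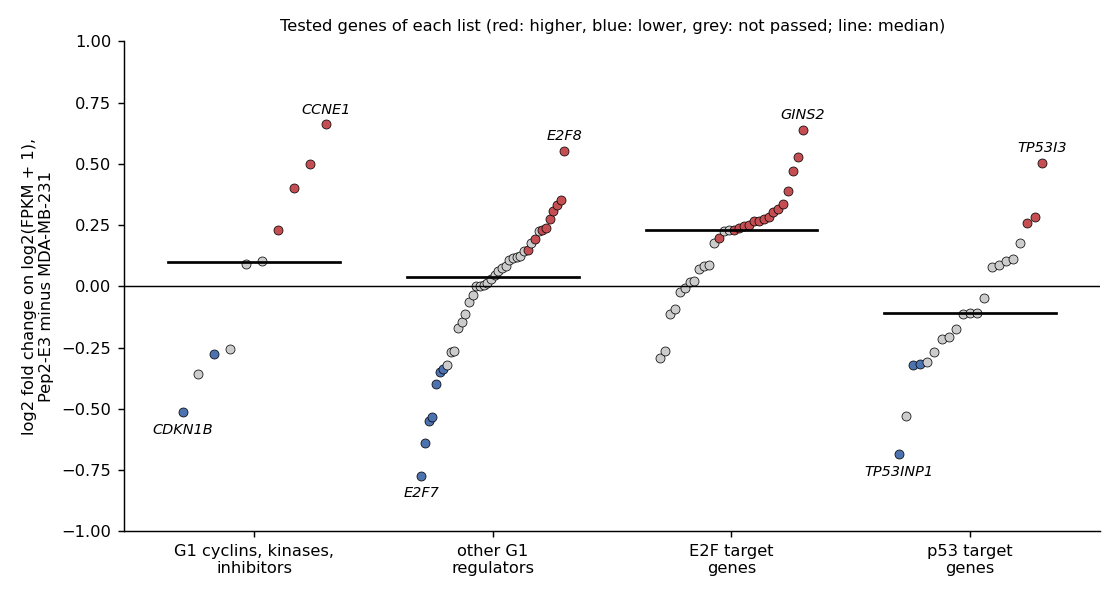
Difference in log2(FPKM + 1), Pep2-E3 minus MDA-MB-231, of the tested genes in 4 lists, sorted within each list; red genes were higher, blue genes lower and grey genes did not pass, and the black line is the list's median. The medians are 0.10, 0.04, 0.23 and -0.11 from left to right, and the E2F target list has 16 red and 0 blue points.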

How the data were processed

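RNA of 3 MDA-MB-231 and 3 Pep2-E3 libraries was sequenced after preparation with a NEBNext Ultra kit, per the labels' protocols. For each library the authors deposited a table of Ensembl identifiers and FPKM values, per the file headers. Named in the submitters' processing notes are Bowtie2 2.2.3, HTSeq 0.6.0 and HISAT2 2, and the build mm8, a mouse build, although the identifiers are human. How each tool was used is not given in the sources used here. All 30099 identifiers are in GENCODE release 29 (GRCh38).

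FPKM multiplied by the union exon length and the library total gave whole fragments within 0.001 for 100% of 180594 values. Intervals and limits from fragments cover counting error only. The test was limma-trend (limma 3.58.1, R 4.3.3) on log2(FPKM + 1), with no covariates, for the 14235 genes whose mean was 0.5 FPKM or more, and with Benjamini-Hochberg adjustment over all of them at 0.05. The scale understates changes of low genes. With 3 against 3 libraries an exact permutation test of 1 gene cannot go below 0.10, so none was used.

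Alternatives were pseudocounts of 0.1 and 5, no filter, other scalings, a block for the replicate number, limma-voom on recovered fragments, leaving out each library, and correcting each for exon length and GC content by natural splines of 5 degrees of freedom. That correction without Pep2-E3 replicate 1 was chosen after seeing the data. The genes and lists were chosen with earlier results of these data known. Beside the 10 genes, the rule for names took the 4 smallest p-values per direction in each list, regulators under the filter, and the 3 profiles nearest to the gene with the smallest p in each direction.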

Additional observations from a re-analysis of the deposited data

How the results depend on the processing

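The direction of all 10 genes was the same under all 16 alternatives. CCNE1, CDK4, CDKN1A and CDKN1B passed, and CCND1, CCND3 and CDK6 did not pass, under each of them. CDK2 lost its call without MDA-MB-231 replicate 2. E2F1 lost it under 6 alternatives and SKP2 gained one under 6, including each GC content and exon length correction. The number of changed genes among the 10 ranged from 4 to 7, while 11.3% to 37.7% of all tested genes passed under these alternatives. Over all tested genes it was 4383, and 2474 to 4857 when a library was left out. The same range was 9 to 17 of 40 tested other regulators, 6 to 16 of 30 E2F targets and 3 to 8 of 21 p53 targets. In these fits 17.4% to 33.9% of all tested genes passed. Each such fit has fewer libraries. No pairing by replicate number was seen: deviations of same-numbered libraries correlated at -0.04, 0.04 and -0.06. These values cannot show whether same-numbered libraries were prepared together. With the replicate block, 2966 genes changed in all, 20.8% of those tested. Among them were 5 of the 10 genes (50%), 10 of the other regulators (25%) and 9 E2F targets (30%). E2F1 then had an adjusted p of 0.0520 in limma. Scaling by median-of-ratios moved the median of all tested genes from -0.02 to -0.01. Depth limits statements on CCND2, CDKN2A, CDK3 and LIN37.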
